A study of Mus musculus with 4 samples.

Results

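Lyve1 was examined together with 6 genes that mark lymphatic or large blood vessels, in 4 Visium sections of mouse lung. The 7 genes were chosen by name from the 32285 rows of each count table: Prox1, Mmrn1, Flt4 and Ccl21a as the lymphatic genes beside Lyve1, and Vwf and Slc6a2 as the blood vessel genes. The choice was made with the difference in Lyve1 between the sections already known, so the values of vaped against non-vaped sections below are a description and carry no test for these genes. Visium captures polyadenylated RNA on a grid of barcoded spots under a cryosection and counts molecules by their unique molecular identifiers (UMIs); each spot covers several cells, so spots are described as regions and never as cell types. All mice were C57BL/6J. The vaped (V) group inhaled aerosol of a flavored vape juice of 70% vegetable glycerol and 30% propylene glycol from JUUL pens in whole body chambers for 4 hours a day, 5 days a week over 9 weeks, starting at an age of 6 to 8 weeks, and is called the 0% vape group in the methods; the non-vaped (NV) group breathed air. Each group held 1 male and 1 female mouse with 1 section of upper pulmonary branches each, so sex and mouse cannot be told apart within a group, and no exact permutation test of 2 against 2 sections can give a p below 0.33.

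Lymphatic capillaries take up fluid and leukocytes from tissue and are lined by a thin endothelium that depends on the transcription factor PROX1 and on VEGF-C signaling through the receptor VEGFR3. LYVE1 is a membrane receptor for hyaluronan; it is best known on lymphatic capillaries but is also made by a class of tissue macrophages that lies along vessels and by some blood endothelium, liver sinusoids among them. CCL21 is the chemokine that guides CCR7-bearing dendritic cells and T cells into lymphatic vessels. In the lung, lymphatic vessels run beside bronchi, arteries and veins, and von Willebrand factor is made by the endothelium of larger vessels, above all veins.

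In the GRCm38 annotation of GENCODE, Lyve1 (ENSMUSG00000030787) lies on the minus strand at chr7:110850607-110863239. Prox1 (ENSMUSG00000010175) lies at chr1:190118035-190170714 and Flt4 (ENSMUSG00000020357), the VEGFR3 gene, at chr11:49609263-49652739. Mmrn1 (ENSMUSG00000054641), which encodes multimerin 1, lies at chr6:60924976-60989378, and Vwf (ENSMUSG00000001930) lies on the same chromosome at chr6:125546774-125686679. Slc6a2 (ENSMUSG00000055368), the noradrenaline transporter gene, lies at chr8:92960079-93001667. Ccl21a (ENSMUSG00000094686) lies at chr4:42772860-42773993 within a family of near-identical copies on the same chromosome, so its counts depend on how shared reads were handled. Over the 402 coding bases, Ccl21a and Ccl21b differed at 2 positions, T84A and C194T, counted from 1 at the first coding base. The 130 bases from base 76 on of both coding sequences, from the GENCODE transcripts of GRCm38, are shown because they hold both differences, which are in capitals.
Ccl21a: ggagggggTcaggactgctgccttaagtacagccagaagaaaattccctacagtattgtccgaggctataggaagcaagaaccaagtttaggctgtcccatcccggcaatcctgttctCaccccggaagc
Ccl21b: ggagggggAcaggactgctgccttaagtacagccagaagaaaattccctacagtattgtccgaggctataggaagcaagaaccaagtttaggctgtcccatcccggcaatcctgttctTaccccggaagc
The whole transcripts of Ccl21a and its copy Gm21541 differed at 6 of 870 bases, and at 3 of the last 400 bases, where 3-prime reads fall. Ccl21b had 0 UMIs in all 4 sections. Gm13304 had 1 and 2 UMIs in the V male and V female and Gm21541 had 2 in the V female, against 9906 UMIs for Ccl21a. Single reads were not examined, so the part of the copies in the Ccl21a counts is not known.

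The sections differed in depth and in the tissue they held. They comprised 473 to 2053 spots and 6957392 to 34308556 UMIs, with a median of 6259 to 11355 UMIs per spot, and each pair of sections shared 277 to 1167 spot barcodes. Parenchyma spots were set by 6 genes of alveolar epithelium and capillaries (Calcrl, Cldn18, Hopx, Sftpb, Sftpc, Tmem100). Added together per UMI, these came to at least 50% of their value across the 4 sections. The rest are called upper airway, a name that covers all tissue low in these genes, heart and fat included. Per 1000000 UMIs, summed cardiac muscle genes stood there at 18643 (NV male), 12824 (NV female) and 5946 (V female). In the same order, adipose genes stood at 3120, 13990 and 12028, and club cell genes at 17416, 3422 and 16818. The V male section stood apart from the other 3. It held 1564 parenchyma spots and 1 upper airway spot, against 348 to 1620 and 125 to 433 in the others, and a mitochondrial share of 5.1% against 9.72% to 10.9%. Its summed cardiac muscle genes (6 genes) stood at 18.18 per 1000000 UMIs against 3673 to 7015, its adipose genes (10 genes, Elovl3 and Otop1 at 0) at 70.96 against 1255 to 7875, its club cell genes (4 genes) at 287.2 against 2244 to 12764, and its pan-endothelial genes (11 genes, all detected) at 3629 against 2136 to 2488. The main comparisons are therefore also given without it.

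Lyve1 was high in 1 section and low in the other 3. Among NV mice its level per 1000000 UMIs (CPM) was 143.5 in the male (1347 UMIs) and 197.1 in the female (1371 UMIs), and among V mice 738.2 in the male (8770 UMIs) and 116.2 in the female (3987 UMIs). The V male lay above every other section and the V female below every other section, so the groups overlapped. The exact 95% Poisson intervals, which cover counting error only, ran from 722.8 to 753.8 in the V male and from 112.6 to 119.9 in the V female. The group means were 170.3 ± 37.87 in NV and 427.2 ± 439.8 in V (SD, n = 2 each); the spread within V was as large as its mean.

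Of the lymphatic genes, none followed the pattern of Lyve1 in full. Prox1, which sets lymphatic identity, was the rarest, with 6.818 CPM (male) and 7.905 (female) among NV mice and 1.768 (male) and 5.101 (female) among V mice, from 21 to 175 UMIs per section. It was lowest where Lyve1 was highest, and both V sections lay below both NV sections, which held for 14.4% of the 14570 genes tested; the opposite order, with both V sections above, held for 12.6% of genes and for none of the 7 members. In parenchyma spots alone the groups overlapped, with 4.852 and 3.715 in NV and 1.768 and 3.964 in V. Over whole sections the summed cardiac muscle genes ranked the sections as Prox1 did. They stood at 6573 (NV male), 7015 (NV female), 18.18 (V male) and 3673 CPM (V female). The part of such tissue content in the level of Prox1 was not tested. Mmrn1 stood at 37.5, 27.6, 38.72 and 26.03 in the same order. Both males lay above both females for Mmrn1. The share of all genes with this order was not determined, and a difference between the sexes was not tested. Flt4 stood at 33.56, 32.77, 68.26 and 27.52, high in the V male and close together in the other 3. Ccl21a stood at 158.3, 97.88, 251.6 and 138.4; the V male was again highest, and each V section was above the NV section of its own sex.

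The blood vessel genes also peaked in the V male. Vwf, whose product binds platelets at injured vessel walls, stood at 245 CPM (male) and 201.2 (female) among NV mice and at 430.5 and 203.2 among V mice. Slc6a2, whose product clears noradrenaline, stood at 60.41, 53.04, 118.6 and 35.41 in the same order. The groups overlapped for both genes, and for Slc6a2 the V female was the lowest of the 4.

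**Figure D1:**
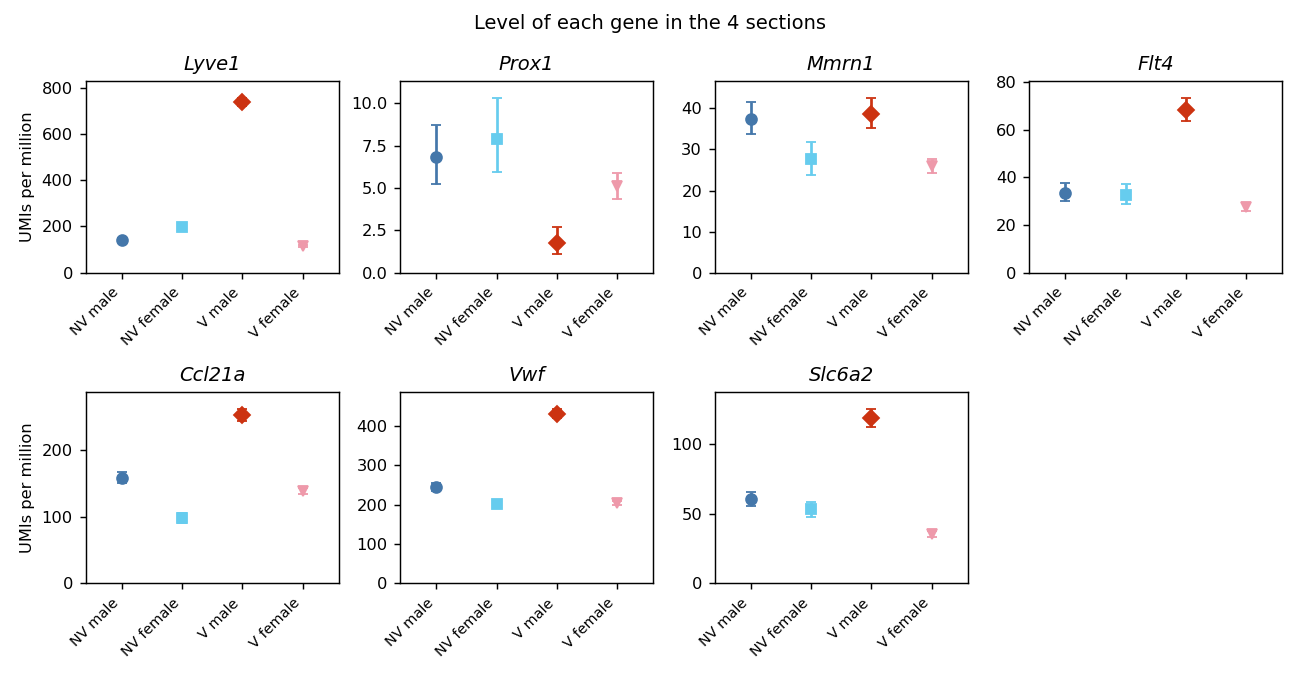
Level of the 7 genes in CPM in each section (x axis); bars are exact 95% Poisson intervals and each y axis starts at 0. The V male (diamonds) is highest for every gene but Prox1, where it is lowest, with 738.2 for Lyve1 against 116.2 to 197.1 in the other sections.

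Because the V male held more endothelial RNA, the genes were also set against the summed UMIs of 11 pan-endothelial genes. Per 1000 pan-endothelial UMIs, Lyve1 had 57.68 UMIs (male) and 90.94 (female) among NV mice and 203.4 (male) and 54.4 (female) among V mice, so the V male stayed above the other sections by this measure too. Flt4 had 18.81 in the V male against 12.88 to 15.12, Vwf 118.6 against 92.86 to 98.48, and Slc6a2 32.68 against 16.58 to 24.48. Ccl21a had 69.33 against 45.17 to 64.81. Mmrn1 was lowest in the V male by this measure, at 10.67 against 12.18 to 15.07, and Prox1 was at 0.4871 against 2.388 to 3.648. In parenchyma spots alone Mmrn1 was no longer lowest in the V male, at 10.67 against 7.379 to 15. Prox1 still was, at 0.4871 against 1.201 to 1.656. More cells of a type and more RNA per cell cannot be told apart in such sums.

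Over whole sections, edgeR's quasi-likelihood test on the summed counts called none of 14570 genes between V and NV at an adjusted p under 0.05 (0% of genes, none of the 7 members among them); 248 genes had an unadjusted p under 0.05 and the Wald test of DESeq2 called 8. The log2 fold change of V over NV was 1.22 (SE 0.85) for Lyve1, -1.05 (SE 0.65) for Prox1, -0.05 (SE 0.24) for Mmrn1, 0.46 (SE 0.40) for Flt4, 0.55 (SE 0.37) for Ccl21a, 0.44 (SE 0.37) for Vwf and 0.35 (SE 0.54) for Slc6a2. The value of Lyve1 was set by 1 library: it was -0.48 (SE 0.28) without the V male and 1.97 (SE 0.27) without the V female. Leaving out the V female gave 0.92 for Slc6a2 and 0.90 for Flt4, and leaving out the V male gave -0.61 and -0.20. With the same omissions, Ccl21a kept its sign, with 0.83 and 0.19, and Prox1 kept its sign on the other side, with -2.19 and -0.45. Over all genes, the fit without the V female called 0.897% of 14831 higher and 4.57% lower (5.47% in either direction), in a fit where the lone V section is assumed to vary like the NV sections. Among all genes tested, 0.357% had a ratio of V male over NV male at least as large as that of Lyve1. The ratio of V over NV had opposite signs in males and females for 4 of the 7 members over whole sections, beside 50.4% of all genes.

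In parenchyma spots alone, the V male again stood above the other sections for Lyve1. The level was 160 CPM (male) and 277.8 (female) among NV mice and 738.2 (male) and 158.1 (female) among V mice. The edgeR test called none of 14348 genes (0%, with 380 at an unadjusted p under 0.05 and 9 by the Wald test), and the log2 fold change of Lyve1 was 1.04 (SE 0.72), -0.43 (SE 0.22) without the V male and 1.76 (SE 0.20) without the V female. The other members stood between -0.56 (SE 0.55) for Prox1 and 0.49 (SE 0.30) for Ccl21a. Without the V male the values were -0.11 for Prox1, -0.23 for Mmrn1, -0.22 for Flt4, 0.24 for Ccl21a, 0.04 for Vwf and -0.56 for Slc6a2, so Flt4 and Slc6a2 changed sign. Over all genes, the fit without the V female called 3.09% of 14154 higher and 7.38% lower, and the fit without the V male called 2.02% of 14373 in either direction and 0.598% lower. Opposite signs in the sexes held for 6 of 7 members in the parenchyma and for 50.7% of all genes.

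With all 4 sections, the other genes of the lymphatic system gave no call between V and NV in the parenchyma. Of 10 further lymphatic endothelial genes, 10 were tested and none was called, with a median log2 fold change of 0.14 beside 0.01 over all genes; of 9 VEGF-C pathway genes, 8 were tested, none was called and the median was 0.13. Of 10 hyaluronan genes, 7 were tested with none called and a median of -0.24, and the 5 genes of the CCR7 axis had none called and a median of -0.46. With a V section left out, calls appeared. Without the V female, Gata2 and Pdpn of the lymphatic list and Ccbe1 and Flt1 of the VEGF-C list were higher, 1 hyaluronan gene was higher and 1 lower, and 4 of 5 CCR7 axis genes (Cxcl13, Ackr4, Ltb and Ccr7) were lower, with a CCR7 axis median of -1.09. Without the V male, Cxcl13 and Ccr7 were lower and the CCR7 axis median was 0.13, so its sign rested on 1 library. The VEGF-C median was -0.17 without the V male and the lymphatic median 0.04. The 15 markers of Lyve1-type interstitial macrophages, another known source of Lyve1, had none called and a median of -0.82, which was -0.32 without the V male and -1.55 without the V female. Their summed level in parenchyma spots was 3796 CPM (NV male), 3250 (NV female), 3877 (V male) and 4002 (V female). Cd209f and Cd209g, defining members of the list, were at 0 in the V male. In the fit without the V female, 10 of these 15 macrophage genes were called lower, the largest changes being those of Cd209f, Cd209g, Folr2 and Timd4, and none higher. Their part in the level of Lyve1 was not tested.

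The 7 genes differed in where they lay. In the 3 sections with an upper airway region, Lyve1 was higher in the parenchyma, with 160 CPM there and 88.83 in the upper airway (NV male), 277.8 and 101.6 (NV female), and 158.1 and 66.18 (V female). Slc6a2 had the steepest difference, with 73.61 against 16.57, 85.98 against 14.11 and 52.7 against 14.77, and Flt4, Ccl21a and Vwf were also higher in the parenchyma in all 3. Prox1 lay the other way in all 3, with 4.852 in parenchyma against 13.35 in upper airway (NV male), 3.715 against 12.86 (NV female) and 3.964 against 6.458 (V female). The summed cardiac muscle genes lay the same way, with 2938 against 18643, 2099 against 12824 and 1768 against 5946. The part of heart, fat and airway tissue in these region levels was not tested. Mmrn1 was mixed, with 43.94 against 16.11 in the NV male, 22.82 against 33.24 in the NV female and 28.71 against 22.83 in the V female. Among the region markers, Tmem100 and Calcrl are themselves endothelial, so a higher level of endothelial genes in the parenchyma is in part set by the definition. Per 1000 pan-endothelial UMIs the order turned for several genes. Lyve1 was then higher in the upper airway in all 3 sections (87.05 against 54.6, 94.71 against 89.83 and 62.04 against 52.15), as were Vwf (227.3 against 84.97, 128.6 against 82.37 and 134.5 against 83.49) and Mmrn1 (15.79 against 15, 30.99 against 7.379 and 21.4 against 9.469). Ccl21a and Flt4 were higher there in both females only, and Slc6a2 stayed higher in the parenchyma in all 3.

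**Figure D2:**
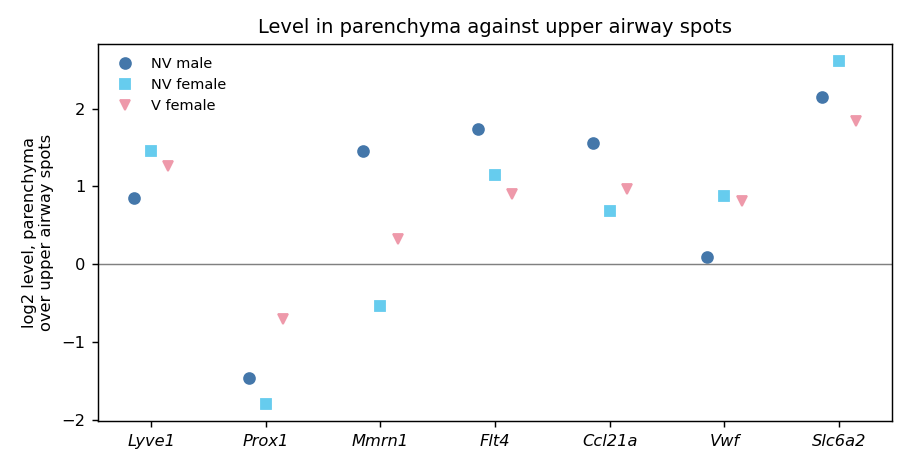
Log2 ratio of the level in parenchyma over upper airway spots for each gene; each point is 1 of the 3 sections that hold both regions, and the grey line marks equal levels. Prox1 lies below 0 in all 3 sections, Mmrn1 on both sides, and the other 5 genes above 0 in all 3.

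Within a section, Lyve1 was spread widely, whereas Ccl21a was more concentrated. To compare spots at equal depth, each was thinned to 3000 UMIs, which left out 111, 52, 202 and 224 shallower spots in the NV male, NV female, V male and V female. A Lyve1 UMI was then found in 30.2%, 47.7%, 88.6% and 34% of spots (66.5%, 79.1%, 95.1% and 71.2% before thinning). Its variance over spots was 1.12, 1.15, 1.13 and 1.1 times its mean, close to the value of 1 of a Poisson count in every section, the V male included. The highest 5% of spots held 14.1% to 30.9% of its UMIs. For Ccl21a the variance was 2.58, 2.86, 2.6 and 2.22 times the mean and the highest 5% of spots held 35.3% to 52.4% of its UMIs. Mmrn1 had ratios of 1.27, 4.81, 1.48 and 1.2 in only 6.12% to 9.76% of spots. Only the NV female stood out, where 1 upper airway spot held 15 Mmrn1 UMIs before thinning. Vwf (1.22 to 1.43) and Slc6a2 (1.24 to 1.46) lay between Lyve1 and Ccl21a. Flt4 (0.943 to 1.13) was near the Poisson value, and Prox1 was in 0.367% to 1.78% of spots. At low means the ratio is drawn toward 1, so those of Mmrn1 and Flt4 cannot be set against the more abundant genes.

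**Figure D3:**
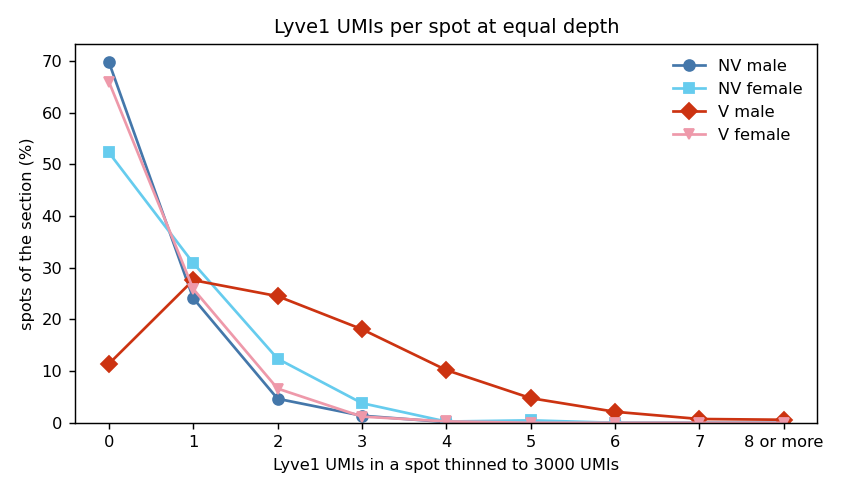
Share of spots (y axis, %) by the number of Lyve1 UMIs in a spot thinned to 3000 UMIs (x axis), 1 line per section. In the V male 11.4% of spots held no Lyve1 UMI, against 52.3% to 69.8% in the other sections, and its whole distribution is shifted to the right.

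The single spots with most Ccl21a are given as a description, since choosing them by Ccl21a fixes its high count there. In the NV male the peak spot held 93 Ccl21a UMIs, 17 Mmrn1 UMIs and 2 Lyve1 UMIs, and in the V female it held 100, 21 and 6. In the NV female the peak spot held 83, 9 and 4, and in the V male 96, 8 and 26. All 4 were parenchyma spots, and in the NV male and V female the same spot was also the peak spot of Mmrn1. Prox1 had 0, 1, 0 and 1 UMIs in these spots. For scale, the highest Lyve1 count of any spot was 19 (NV male), 17 (NV female), 37 (V male) and 25 (V female). The peak spot of Vwf was also that of Slc6a2 in the NV male, with 54 and 22 UMIs beside 16 Lyve1 UMIs.

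Whether Lyve1 spots carried the vessel genes was first asked by detection at equal depth. A lymphatic gene other than Lyve1 was found in 41.2% of 221 Lyve1 spots and 40% of 510 other spots in the NV male, in 31.8% of 201 and 35.5% of 220 in the NV female, in 54.6% of 1208 and 59.4% of 155 in the V male, and in 39.8% of 621 and 37% of 1208 in the V female. The sign of the difference varied between sections, with a mean of -1.1 percentage points ± 3.63 (SD, n = 4). A blood vessel gene was found in 57.9% and 57.3%, 53.2% and 48.2%, 76.3% and 81.9%, and 57.2% and 47.1% of these spots, a mean difference of 2.54 points ± 6.66. Neither mean exceeded its spread over the 4 sections. Without the V male they were 0.111 ± 3.32 and 5.26 ± 4.7 points (SD, n = 3), the latter above 0 in 3 of 3 sections. In parenchyma spots alone the lymphatic mean was -3.3 ± 3.02 points, above 0 in 0 of 4 sections, and the blood vessel mean was 0.13 ± 5.8. Thinning discards most molecules: with 5000 UMIs per spot the means were 4.87 ± 3.71 and 6.43 ± 4.69 points, positive in 4 of 4 sections for both. Without thinning they were 28.3 and 23 points, beside a median depth of 6468 to 14900 UMIs in Lyve1 spots and 2498.5 to 5660.5 in the others.

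Levels per UMI use all molecules. Spots with at least 1 Lyve1 UMI were summed in each section and compared with the remaining spots, with the section as a block. All 6 other members were higher on average, with log2 ratios of 0.35 (SE 0.33) for Prox1, 0.16 (SE 0.14) for Mmrn1, 0.33 (SE 0.12) for Flt4, 0.35 (SE 0.09) for Ccl21a, 0.25 (SE 0.08) for Vwf and 0.38 (SE 0.11) for Slc6a2. None of them passed edgeR's quasi-likelihood test over all genes, where 0.0447% of 13424 genes were called, 0.0223% higher and 0.0223% lower. With spots thinned to 3000 UMIs, 1 of 5 tested members was called, Ccl21a (0.33, SE 0.09, edgeR adjusted p = 0.0087), beside 2.75% of 10267 genes. In parenchyma spots alone, Ccl21a (log2 ratio 0.37, SE 0.08, edgeR adjusted p = 0.013), Vwf (0.32, SE 0.07, 0.0093) and Slc6a2 (0.52, SE 0.11, 0.0093) were called, 3 of the 4 genes higher in Lyve1 spots among 12406 tested (0.0322%). The fourth, Ccl17, was not among the members.

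Since 95.1% of V male spots held Lyve1, the split was repeated on a relative scale, an alternative chosen after seeing the data: the 25% of parenchyma spots with most Lyve1 per UMI in each section against the remaining parenchyma spots. These Lyve1-rich spots numbered 171, 87, 391 and 405, with a median depth of 8956, 9033, 5589 and 8050 UMIs against 10038, 9534, 6507 and 9428 in the other parenchyma spots. The part of this lower depth in the ratios below was not tested. Lyve1 stood in them at 347, 525.8, 1239 and 350.4 CPM against 99.97, 194.2, 598.6 and 102.1 in the others, which is what defined them. Ccl21a stood at 255.1 against 165 in the NV male, 149.3 against 107.9 in the NV female, 241.8 against 254.3 in the V male and 270.6 against 151.1 in the V female. Slc6a2 stood at 102.2 against 64.45, 148.3 against 64.95, 108.9 against 121.3 and 73.4 against 46.68, and Vwf at 326.4 against 224.1, 310.2 against 236, 443 against 426.9 and 318.1 against 234.2. Both NV sections and the V female thus had higher Ccl21a, Slc6a2 and Vwf in Lyve1-rich spots, and the V male did not for Ccl21a and Slc6a2 and barely did for Vwf.

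By the edgeR test with the section as a block, 4 of the 6 members were called higher in Lyve1-rich parenchyma spots, beside 0.364% of 12626 genes called in either direction (0.15% higher, 0.214% lower). The same split over all spots, upper airway included, called no member beside 4.53% of 13445 genes (4.4% lower), although the log2 ratios were 0.60 for Ccl21a, 0.68 for Slc6a2, 0.52 for Mmrn1 and 0.36 for Vwf, with SE of 0.15, 0.19, 0.15 and 0.10 and adjusted p from 0.053 for Ccl21a to 0.69 for Prox1 by edgeR. In the parenchyma split the log2 ratios were 0.47 (SE 0.05, edgeR adjusted p = 3.7e-12) for Ccl21a and 0.43 (SE 0.07, 1.6e-05) for Slc6a2. Those of Mmrn1 and Vwf were 0.42 (SE 0.09, edgeR adjusted p = 0.0056) and 0.32 (SE 0.04, 9.7e-10). These were the highest 4 of all 19 genes called higher, Vwf level with Prss23 at 2 decimals. Ratios of single sections ran from -0.07 to 0.84 for Ccl21a and from -0.16 to 1.19 for Slc6a2. Such ranges are far wider than the SE, so the adjusted p do not measure agreement between sections. Flt4 was at 0.20 (SE 0.08) and Prox1 at -0.26 (SE 0.30), neither called. Without the V male these 4 ratios were 0.72, 0.76, 0.59 and 0.45, and without the V female that of Ccl21a was 0.25. Ccl21a and Vwf were called with any 1 section left out; Slc6a2 was lost without the NV female (0.31, edgeR adjusted p = 0.52), and Mmrn1 without any section other than the V male, with 0.31 to 0.44.

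**Figure D4:**
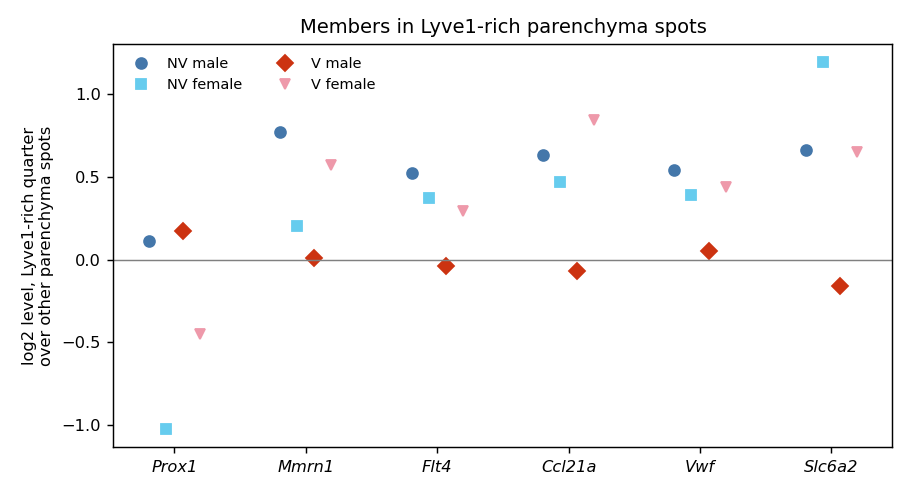
Log2 ratio of the level in the 25% of parenchyma spots with most Lyve1 per UMI over the other parenchyma spots (y axis) for 6 genes, 1 point per section. For Mmrn1, Flt4, Ccl21a, Vwf and Slc6a2 the V male lies near 0, from -0.16 to 0.05, and the other 3 sections lie between 0.20 and 1.19.

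The difference of this contrast between V and NV was tested as an interaction. No member was called and no gene of 12626 (0%; 634 had an unadjusted p under 0.05). The V contrast minus the NV contrast was -0.65 (SE 0.16, edgeR adjusted p = 0.31) for Slc6a2, -0.34 (SE 0.18) for Flt4, -0.31 (SE 0.20) for Mmrn1, -0.23 (SE 0.09) for Vwf, -0.15 (SE 0.13) for Ccl21a and -0.12 (SE 0.65) for Prox1. With the split at 1 Lyve1 UMI the differences had mixed signs, from -0.38 for Slc6a2 to 0.70 for Mmrn1, none called beside 0.171% of 13424 genes (0.156% higher, 0.0149% lower); over all genes that count was 0 without the V male and 0 without the V female. The 2 V sections differed from each other by more than these values for Ccl21a in the Lyve1-rich split, with log2 ratios of -0.07 and 0.84.

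Genes with a pattern most like or most unlike Lyve1 were named by their log2 ratio in the same contrasts. With the split at 1 Lyve1 UMI, 2 genes past the test had the same sign in all 4 sections and both were lower in Lyve1 spots: Lars2, a mitochondrial leucyl-tRNA synthetase (-0.98, SE 0.08, edgeR adjusted p = 3.8e-09), and Gm42418 (-0.77, SE 0.08, 7.5e-07). The other 4 called genes, the club cell genes Scgb1a1 and Scgb3a2, the atrial peptide gene Nppa and Car3, had mixed signs or, for Scgb3a2, no ratio in the V male. Spots without Lyve1 were the shallower ones in this split, with medians of 2498.5 to 5660.5 UMIs against 6468 to 14900. The part of depth in these calls was not tested. In Lyve1-rich parenchyma spots the genes below the members in the list of those called higher were Prss23 (0.32, on the venous list), Tinagl1 (0.25), Plvap (0.20, a component of endothelial diaphragms), Tjp1 (0.18, a tight junction scaffold), Adgrl4 (0.17), Ctla2a (0.17), Podxl (0.16) and Cd200 (0.16), each higher in 4 of 4 sections. Among the 27 genes called lower were Scgb1a1 (-0.23), Cyp2f2 (-0.34) and Scgb3a2 (-0.35) of club cells, Msln (-0.36) and Upk3b (-0.33) of mesothelium, and Car3 (-0.34) and Cfd (-0.24), both abundant in fat. Scgb1a1 and Scgb3a2 thus changed sign between the splits.

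By list, Lyve1-rich parenchyma spots had 1 of 6 tested venous genes called higher (Prss23; list median 0.24 beside -0.00 over all genes) and 2 of 6 general capillary genes (Plvap and Ptprb; median 0.11). None of 8 tested arterial genes (median 0.03), 7 aerocyte genes (0.06), 8 other lymphatic genes (0.05), 8 VEGF-C pathway genes (0.05), 5 hyaluronan genes (0.02) or 5 CCR7 axis genes (0.07) was called. The 11 pan-endothelial genes had none called and a median of 0.08. None of the 15 Lyve1-type interstitial macrophage genes was called, with a median of -0.08, and none of 6 alveolar macrophage genes, with a median of -0.09. Of 10 adventitial fibroblast genes, Ly6a was higher (0.13) and Dcn lower (-0.18). None of 7 smooth muscle genes was called. The platelet (3 tested), B and T cell (10), red blood cell (4), alveolar type 1 (5), alveolar type 2 (6) and ciliated cell (3) lists had none called. Cardiac Tnni3 was lower (-0.18), and of the 6 region markers Calcrl was higher (0.14) and Sftpb (-0.10) and Sftpc (-0.09) lower.

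The members were also compared pair by pair in thinned parenchyma spots, as a description with no test; ratios were formed only where both classes held at least 5 UMIs. Ccl21a was tied most closely to Mmrn1 and, on few spots, to Prox1. Spots with an Mmrn1 UMI had a Ccl21a level with a mean log2 ratio of 1.74 over 4 sections (1.15 to 2.16), and spots with a Ccl21a UMI had an Mmrn1 ratio of 1.28 (0.82 to 1.81). Spots with a Prox1 UMI had a Ccl21a ratio of 2.04 (1.53 to 2.39) in the 3 sections where it could be formed. It rested on 9 (NV male), 5 (V male) and 14 (V female) Prox1 spots with 18 to 20 Ccl21a UMIs each. The NV female, left out by the UMI minimum, had 3 Prox1 spots with 0 Ccl21a UMIs. The lymphatic and blood vessel genes were not separate: spots with Slc6a2 had ratios of 0.96 (0.53 to 1.57) for Ccl21a, 0.98 (0.41 to 2.12) for Mmrn1 and 0.51 (0.25 to 0.76) for Vwf. Lyve1 was only weakly raised in spots chosen by members other than Prox1. Mean ratios were 0.08 for Mmrn1 spots, 0.10 for Vwf, 0.11 for Ccl21a, 0.12 for Flt4 and 0.14 for Slc6a2, with at least 1 of 4 sections at or below 0 for each. For Prox1 spots a Lyve1 ratio could be formed in 2 sections only, at 0.64 (V male) and -0.24 (V female).

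**Figure D5:**
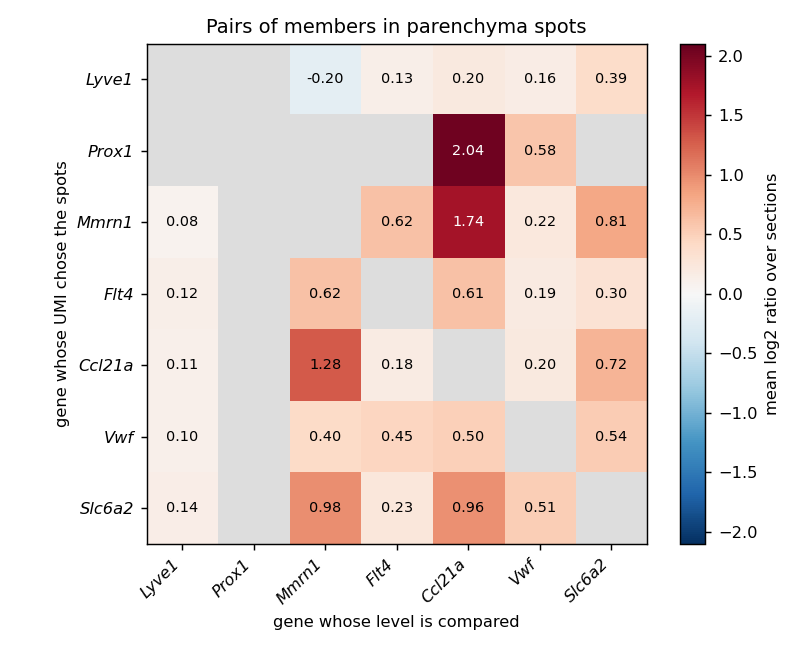
Mean over sections of the log2 ratio of a gene's level (columns) in thinned parenchyma spots with a UMI of another gene (rows) over spots without one; grey marks the diagonal and pairs with fewer than 3 usable sections. The strongest cells join Ccl21a with Prox1 (2.04, from 5 to 14 Prox1 spots in each of 3 sections) and Mmrn1 (1.74 and 1.28). The Lyve1 column stays between 0.08 and 0.14.

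Promoters of 4 of the 7 members (Prox1, Mmrn1, Flt4 and Ccl21a) were matched in the RefSeq table of GRCm38.p6. Those of Ccl21a and Mmrn1 are shown because these are the lymphatic genes that were called together in Lyve1-rich spots. Capitals mark AGGAA or its reverse complement TTCCT, a narrower form of the GGAA core bound by ETS factors, which act in all endothelium. Either form was searched on both strands, with overlaps allowed. GGAA after a base other than A was not marked or counted, and it occurs in the windows of Ccl21a, Mmrn1 and Flt4. The window of Ccl21a is chr4:42773942-42774241 on the minus strand and that of Mmrn1 is chr6:60944067-60944366 on the plus strand. The Mmrn1 window lies inside the GENCODE gene (chr6:60924976-60989378, plus strand), so it is not at the GENCODE start of the gene.
Ccl21a: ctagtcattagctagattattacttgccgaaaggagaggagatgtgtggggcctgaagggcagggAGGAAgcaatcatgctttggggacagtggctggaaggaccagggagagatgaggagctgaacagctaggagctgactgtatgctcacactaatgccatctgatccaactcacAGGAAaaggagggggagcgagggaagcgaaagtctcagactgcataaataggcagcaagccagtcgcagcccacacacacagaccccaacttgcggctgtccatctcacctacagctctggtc
Mmrn1: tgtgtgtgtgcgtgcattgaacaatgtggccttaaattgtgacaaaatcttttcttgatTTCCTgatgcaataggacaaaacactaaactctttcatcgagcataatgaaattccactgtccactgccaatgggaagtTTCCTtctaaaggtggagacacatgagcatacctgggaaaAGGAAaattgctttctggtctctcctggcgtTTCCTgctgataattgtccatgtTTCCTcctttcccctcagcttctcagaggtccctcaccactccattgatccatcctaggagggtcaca
AGGAA or TTCCT occurred 2 times for Ccl21a, 5 times for Mmrn1 and 0 times for Flt4 in windows of 300 bases. Of all 32851 promoters of that length, 66.7% held it, with a median of 1. The 0 for Flt4 does not mean that its window lacks GGAA.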

How the data were processed

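Visium libraries from cryosections of 4 lungs (1 section per mouse) were analysed. The authors aligned reads with SpaceRanger 1.2.2 to mm10 and deposited raw UMI counts per gene and spot; their later normalization in Seurat 4.0.3, named in the submitters' processing notes, is not in the values used here. Groups followed the labels (NV and V, 2 sections each, V replicate 1 being the male). The members and gene lists were chosen with earlier results of these data known. UMIs were summed per section, because spots of a section are not replicates, and fitted with edgeR 4.0.16 in R 4.3.3 (TMM, filterByExpr, quasi-likelihood test, Benjamini-Hochberg over all genes, called at an adjusted p under 0.05); DESeq2 1.42.0 was an alternative. The study itself tested spots with a Wilcoxon test. Levels are CPM. Lyve1 spots were compared with other spots with the section as a block and Lyve1 left out. Spots were thinned without replacement to 3000 UMIs where shares were compared; 1 draw was made. Depth ranged from 6957392 to 34308556 UMIs per section; intervals cover counting error only. No doublet calling applies to spots. Named genes were all members, the 10 highest and 5 lowest log2 ratios in the Lyve1 spot contrast among called genes with 1 sign in 4 sections and at least 200 UMIs, and up to 4 called genes per list; genes of the added Lyve1-rich contrast were named after their values were seen. In simulated counts, 97% (whole section), 96% (parenchyma), 100% (Lyve1 spots) and 54% (interaction) of genes with a log2 fold change of 2 were recovered. At a log2 fold change of 1 the shares were 25%, 16%, 66% and 7%. The simulation held the dispersion of every gene at 0.05. Its square root is below that fitted to the data for V against NV, 0.394 (whole section) and 0.293 (parenchyma). Power in those 2 fits is therefore likely lower than the shares given. GENCODE coordinates and transcripts are of GRCm38, the build of mm10; the annotation release differs from that of the authors. Alternatives tried were another scaling, another tool, filters, spot minimums, region thresholds, thinning, the Lyve1 threshold, the replicate block and leaving out each section.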

Additional observations from a re-analysis of the deposited data

Results flagged for a closer look

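V over NV had opposite signs in the 2 sexes for 4 of 7 members over whole sections and 6 of 7 in the parenchyma, in part at values near 0 (Mmrn1, and Vwf in females). The difference between sexes was not tested, since each sex has 1 mouse per group, and opposite signs held for 50.4% of all genes tested over whole sections and 50.7% in the parenchyma. Over whole sections the log2 ratio of V over NV in males and in females was 2.36 and -0.76 for Lyve1, 1.02 and -0.25 for Flt4, 0.97 and -0.58 for Slc6a2, and 0.05 and -0.08 for Mmrn1. In the parenchyma it was 2.21 and -0.81 for Lyve1, -1.46 and 0.09 for Prox1, -0.18 and 0.33 for Mmrn1, 0.77 and -0.32 for Flt4, 0.79 and -0.01 for Vwf, and 0.69 and -0.71 for Slc6a2. Ccl21a had the same sign in both sexes in both analyses.

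With the split at 1 Lyve1 UMI, the contrast of Lyve1 spots with other spots differed between V and NV by the edgeR interaction test for 23 genes of 13424, none of them a member. The count was 0 after thinning to 3000 UMIs and 0 in the Lyve1-rich splits. The V male had 76 spots without Lyve1, at a median of 2498.5 UMIs.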

How the results depend on the processing

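Whether V and NV differed depended on single libraries. Genes called numbered 0 to 811 (whole section) and 0 to 1483 (parenchyma) with 1 section left out, the highest without the V female; without the V male they were 21 and 291. DESeq2's Wald test called 8 and 9 genes and no filter gave 5 in the parenchyma. The Lyve1 log2 fold change ranged from -0.48 to 1.97 over whole sections and from -0.43 to 1.76 in the parenchyma with 1 section left out, negative without the V male, and from 0.71 to 1.33 under the other settings. With replicate number, which coincides with sex, as a block, Lyve1 was at 0.77 (whole section) and 0.71 (parenchyma) and 0 genes were called; deviations of same-numbered sections correlated at 0.324, and with 2 pairs the numbers were not taken as a pairing. Genes called between Lyve1 spots and others numbered 6. They were 3 by the Wald test, 76 with no filter, 24 in parenchyma spots, 282 after thinning, 14 at 2 Lyve1 UMIs, 609 and 46 for the Lyve1-rich split over all and parenchyma spots, 4 to 52 with 1 section left out and 32, 11, 53 and 18 for the Lyve1-rich parenchyma split without the NV male, NV female, V male and V female. The interaction called 5 genes with DESeq2 size factors, 39 in parenchyma spots, 0 after thinning, 0 in both Lyve1-rich splits and 0 to 54 with 1 section left out. The causes were not tested. Across 17 settings of the Lyve1 spot contrast Flt4, Ccl21a, Vwf and Slc6a2 were higher in all, with Ccl21a called in 10, Vwf in 7 and Slc6a2 in 5. Mmrn1 was higher in 16 (called in 2) and Prox1 in 10 of 16 (called in 0). The settings reuse the same spots and are not independent. Many of the calls come from the Lyve1-rich parenchyma split, chosen after seeing the data, and its fits with 1 section left out. The main fit called none of the 6 members. The difference in detection of a lymphatic gene was 4.1 points at 2 Lyve1 UMIs, 3.48 and 4.87 after thinning to 1000 and 5000 UMIs, 28.3 without thinning and, in the other direction, -3.3 in parenchyma spots; for a blood vessel gene it was 8.57 at 2 Lyve1 UMIs and 23 without thinning. Counting error is widest for Prox1, with 21 to 175 UMIs per section.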
